A study of Mus musculus with 15 samples.

Results

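The 8 genes of albumin and plasma carrier proteins followed here by ribosome profiling of mouse liver over the circadian day were *Alb*, *Gc*, *Afm*, *Ttr*, *Rbp4*, *Ambp*, *Serpina6* and *Serpina7*. They were chosen by gene symbol, and every RefSeq transcript with one of these symbols was used, which gave 9 of the 28167 transcripts and 8 of the 20403 genes in the files, a transcript without a symbol counting as its own gene (*Rbp4* has 2 transcripts). Ribosome profiling sequences the short stretches of mRNA that ribosomes shield from RNase, so the read count of a transcript follows both the amount of its mRNA and the number of ribosomes on it, and the 2 cannot be told apart here. All mice were wild-type C57BL/6N males of 8 to 10 weeks, kept in 12 h of light (400 lx) and 12 h of dark and then moved to constant darkness 24 h before sampling began. Whole livers were taken every 4 h from CT0 to CT24, with 2 mice (n = 2) at each of the 7 times and 14 libraries in all. No group carried an allele or a drug, and the groups differed only in circadian time, which starts at subjective dawn. The last pair is named CT24 in the sample titles, whereas another label field gives it as CT00, and the titles were followed. In whole liver, fewer cells of a type and less RNA per cell cannot be told apart.

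As background, hepatocytes secrete most of the proteins of blood plasma, and several of these carry small lipid-soluble molecules that do not travel freely in water. Albumin (*Alb*), the vitamin D-binding protein (*Gc*) and afamin (*Afm*, which binds vitamin E) form 1 gene family. Retinol-binding protein 4 (*Rbp4*) takes retinol from liver stores into the blood and travels bound to transthyretin (*Ttr*), which also carries thyroxine. *Ambp* encodes a precursor that is cleaved into alpha-1-microglobulin, a lipocalin like *Rbp4*, and bikunin, a light chain of the inter-alpha-trypsin inhibitors. Corticosteroid-binding globulin (*Serpina6*) and thyroxine-binding globulin (*Serpina7*) have the serpin fold but are hormone carriers and not protease inhibitors.

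The libraries held 40593197 to 90458783 counts each. The 21 transcripts of the *Mup* family, the major urinary proteins of male mouse liver, took 42.1% to 70.7% of them, so a share of the whole library depends on the *Mup* reads. Most libraries held more counts than the reads per sample that the paper gives as mapped to mRNA. Some reads were thus counted more than once, as for the 2 *Rbp4* transcripts below. The *Mup* genes are near-identical, and how far their reads were counted repeatedly is not known. The *Mup* share and every share of all counts carry that doubt. For this reason levels are given as CPM (counts scaled to 1 common library size) after TMM scaling, which sets libraries by the bulk of transcripts, unless another scaling is named. All counts of CT16 replicate 2 were even numbers. A second sample entry of that mouse has no file of its own, and its label points to the same file. The markers of hepatocytes were all detected (8 of 8, summed level 7368 to 12776 CPM). Of the 8, 4 passed the edgeR test of a 24-h cosine described below (adjusted p under 0.05), beside 11.3% of all transcripts. The 11 pancreatic acinar markers in the files summed to 4234 CPM in CT20 replicate 2 and to 2.55 to 81.5 CPM in the other 13 libraries. All 11 passed the same test with CT20 replicate 2 included, beside the same 11.3%. The calls of *Serpina6* and *Serpina7* are therefore also given without that library, while those of listed genes outside the 8 were not refitted without it.

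The 2 hormone-carrying serpins passed the test of a 24-h cosine, *Serpina7* only just. *Serpina6* reads were highest around the start of the subjective night, with a fitted peak at CT14.9, and the scarce *Serpina7* reads peaked in the subjective day at CT6.3. *Alb*, *Gc*, *Afm*, *Ttr*, *Rbp4* and *Ambp* did not pass, and no test compared the 2 genes with the 6. In edgeR's quasi-likelihood test of the 24-h cosine, 1947 of the 17299 transcripts averaging 10 or more counts had a Benjamini-Hochberg adjusted p under 0.05. This is a background of 11.3%, and 2 of the 9 transcripts studied here were among them. The median peak-to-trough difference of the 9 was 0.29 on the log2 scale, beside 0.44 for all transcripts tested. Among the 546 transcripts with at least as many reads as *Afm*, 118 passed (21.6%) with a median difference of 0.32. The transcripts of *Alb*, *Gc*, *Afm*, *Ttr*, *Rbp4* and *Ambp* are among these 546 and none of them passed, whereas *Serpina6* and *Serpina7* have fewer reads than *Afm* and are not among them.

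**Figure D1:**
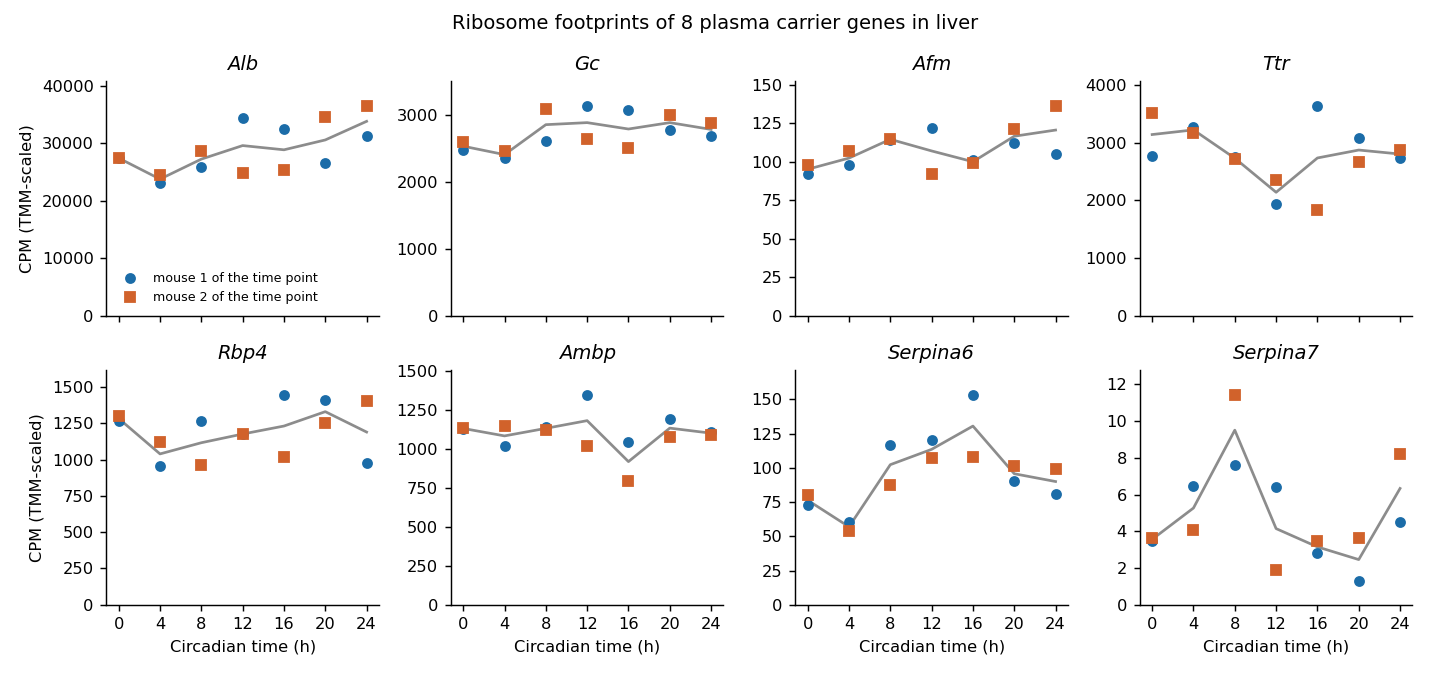
CPM after TMM scaling (y axis, from 0) against circadian time in hours (x axis) for each of the 8 genes. Each point is 1 library, circles and squares are the 2 mice of a time point, and the line joins the means. *Serpina6* has its lowest pair at CT4 and *Serpina7* its highest mean at CT8, while the 14 *Gc* values lie between 2358 and 3128 CPM.

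*Serpina6* carries cortisol and corticosterone in the blood. The gene lies at chr12:103646630-103657218 (GRCm38.p6, minus strand, 5 exons of which 4 are coding). In the subjective day the 2 mice of each time point gave 72.9 and 79.8 CPM (CT0), 60.3 and 53.6 (CT4) and 117 and 87.6 (CT8). From CT12 on they gave 120 and 107 (CT12), 153 and 108 (CT16), 90.4 and 101 (CT20) and 80.9 and 99.1 (CT24). Both CT4 values were below the other 12, and 4 of the 5 highest values came from CT12 and CT16. The cosine had a peak-to-trough difference of 0.90 ± 0.20 (SE) on the log2 scale, a 1.87-fold change, with the peak at CT15.0 ± 0.8 h (least squares over 14 libraries). The edgeR fit gave 0.89 and an adjusted p of 0.00639, and a test of any difference among the 7 times gave a largest difference of 1.2 (log2) and an adjusted p of 0.00989. The adjusted edgeR p of the cosine stayed between 0.00268 and 0.0329 when each library was left out in turn, and was 0.00690 without CT20 replicate 2. The 7-group test missed the threshold without CT4 replicate 2 (edgeR adjusted p = 0.0791).

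The call for *Serpina6* depended on how libraries were scaled. With the total count of the library, the difference stayed at 0.90 (edgeR, log2), the peak moved to CT17.0 and the adjusted edgeR p rose to 0.120. With the total without *Mup* counts, the values were 0.81, CT14.7 and 0.00605. The ratio of *Serpina6* to *Alb* reads within a library, which needs no scaling, had a peak-to-trough difference of 0.79 ± 0.15 (SE, log2) with the peak at CT14.0 ± 0.8 h. The summed level of the hepatocyte markers was 7792 and 7910 CPM (CT0), 7664 and 7368 (CT4), 9373 and 9163 (CT8), 12776 and 10328 (CT12), 11278 and 11349 (CT16), 7976 and 11048 (CT20) and 9015 and 9722 (CT24), so it too was lowest at CT4. Its part in the *Serpina6* result was not tested.

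*Serpina7* carries thyroxine with high affinity. It was the least read of the 8 genes, with 54 to 721 reads per library. Its CPM values were 3.49 and 3.63 (CT0), 6.45 and 4.08 (CT4), 7.60 and 11.4 (CT8), 6.39 and 1.90 (CT12), 2.83 and 3.47 (CT16), 1.29 and 3.63 (CT20) and 4.48 and 8.18 (CT24). The highest 2 of CT0 to CT20 came from CT8, but the 2 mice of CT12 differed more in ratio than those of any other time, and both CT24 values lay above CT0. The peak-to-trough difference was 1.63 ± 0.57 (SE, log2), or 3.09-fold, with the peak at CT6.2 ± 1.2 h. The adjusted edgeR p of the cosine was 0.0480, next to the threshold, and that of the 7-group test was 0.109. The call was lost in 10 of the 14 fits that left out 1 library: both libraries of CT0, CT8 and CT16, and the first replicate of CT4, CT12, CT20 and CT24, with adjusted edgeR p-values from 0.0510 to 0.179. It was also lost with total-count scaling (edgeR adjusted p = 0.111) and in DESeq2 (adjusted p = 0.0656). It held with the total without *Mup* counts (edgeR adjusted p = 0.0291) and without CT20 replicate 2 (edgeR adjusted p = 0.0456).

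The 2 serpins were fitted with peaks at different times of day. *Serpina6* reads outnumbered *Serpina7* reads in each library. There were 21.4 ± 0.774 *Serpina6* reads for each *Serpina7* read at CT0 (SD, n = 2 here and at each later time), then 11.2 ± 2.67 (CT4), 11.5 ± 5.43 (CT8), 37.6 ± 26.7 (CT12), 42.6 ± 16.1 (CT16), 49.0 ± 29.8 (CT20) and 15.1 ± 4.18 (CT24). The ratio was low at CT4 and CT8 and high from CT12 to CT20, with wide spreads between mice at CT12 and CT20. Its cosine had a peak-to-trough difference of 2.33 ± 0.49 (SE, log2). This ratio was formed after the values were seen, and no test was made of it.

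**Figure D2:**
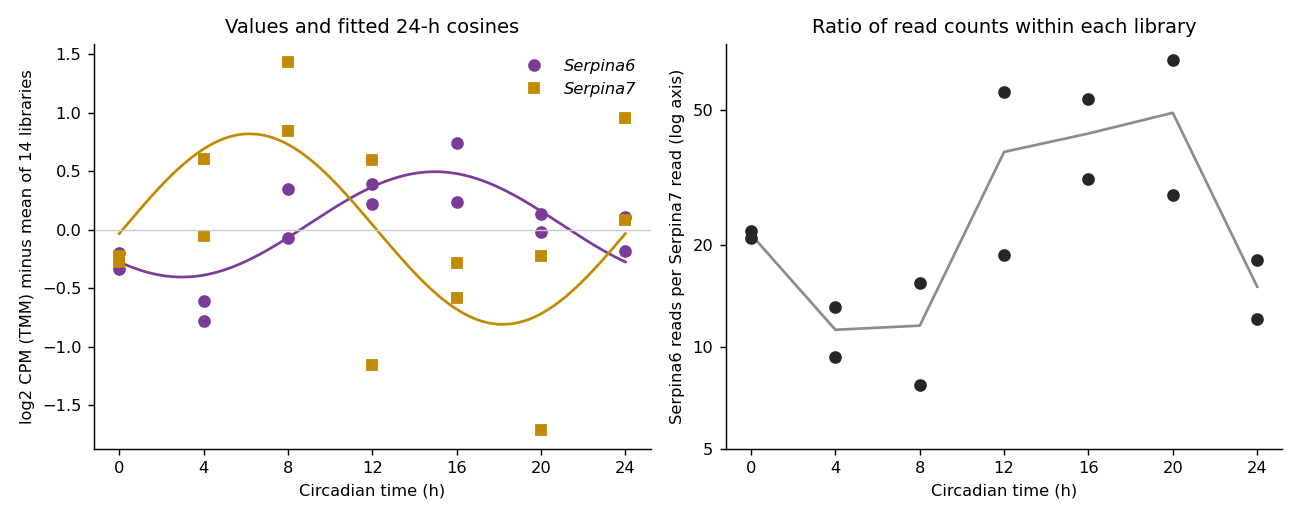
Left, log2 CPM of *Serpina6* (circles) and *Serpina7* (squares) minus the mean of each gene over 14 libraries, against circadian time in hours, with the fitted 24-h cosines as lines. Right, *Serpina6* reads per *Serpina7* read in each library on a log axis, with the line joining the time-point means, which lie at 11.2 at CT4 and 49.0 at CT20.

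*Alb* encodes the most abundant protein of plasma, a carrier of fatty acids, bilirubin and many drugs. It lies at chr5:90460870-90476602 (GRCm38.p6, plus strand, 15 exons of which 14 are coding). The *Alb* promoter is a textbook case of liver transcription, and the clock output factor DBP takes its name from the D site in it. The 250 bases before the RefSeq start site (chr5:90460620-90460869, plus strand) are shown because the reads of *Dbp* passed the cosine test in these libraries and those of *Alb* did not. Capitals mark 4 short motifs, searched on both strands: the D-box type TTNTGTAA, the short HNF1 type GTTAAT, the CCAAT box and the TATA box with the letters TATAAA.
Alb: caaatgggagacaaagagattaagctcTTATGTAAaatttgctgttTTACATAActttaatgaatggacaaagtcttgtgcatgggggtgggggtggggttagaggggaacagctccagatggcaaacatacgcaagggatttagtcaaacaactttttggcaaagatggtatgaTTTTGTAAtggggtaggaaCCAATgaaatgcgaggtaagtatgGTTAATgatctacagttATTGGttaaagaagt

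The *Alb* window holds 3 matches of TTNTGTAA, which begin 223, 204 and 75 bases before the start site. The match at 204 lies on the opposite strand. Of 32851 RefSeq promoter windows of the same length, 3.51% hold at least 1 such match, and none of the windows of *Gc*, *Afm*, *Ambp*, *Rbp4* and *Serpina7* does. GTTAAT occurs at 1 place in the *Alb* window and in 6.43% of all windows, and CCAAT occurs at 2 places, as it does at 1 or more in 33.8% of all windows. A match is a run of letters and not evidence of binding. The files give *Alb* a 5'UTR of 46 nt, and the present RefSeq model one of 65 nt, so the start site behind the counts may differ from the one used here.

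*Dbp* itself ranged from 0.379 to 52.5 CPM, with a peak at CT11.2 and a log2 difference of 6.63 (edgeR adjusted p = 5.74e-07). *Alb* ranged from 23102 to 36421 CPM, a 1.58-fold span over all 14 libraries. The values were 27389 and 27406 CPM (CT0), 23102 and 24384 (CT4), 25838 and 28600 (CT8), 34425 and 24724 (CT12), 32428 and 25247 (CT16), 26487 and 34619 (CT20) and 31157 and 36421 (CT24). The CT4 pair was the lowest, and at CT12, CT16 and CT20 1 mouse lay well above the other. The cosine had a peak-to-trough difference of 0.25 ± 0.17 (SE, log2) with the peak at CT18.8 ± 2.3 h, and the adjusted edgeR p was 0.597. The mice of a time point differed with an SD of 0.20 (log2), and the time-point means spanned 0.51.

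*Gc* binds vitamin D metabolites and actin monomers. It lies on the minus strand at chr5:89417511-89457898 (13 exons, 12 coding), on the same chromosome as *Alb* and *Afm*. It was the steadiest of the 8 genes, with 2732 ± 260 CPM (SD, n = 14) and a coefficient of variation of 9.50%. Its lowest value was 2358, the median 2660 and the highest 3128 CPM, and the 2 lowest values came from CT4, as for *Alb*. The peak-to-trough difference was 0.18 ± 0.10 (SE, log2; edgeR adjusted p = 0.567).

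*Afm* lies at chr5:90518949-90553544 (plus strand, 15 exons, 14 coding), downstream of *Alb*, and like *Alb* encodes 608 residues. It had 108 ± 12.7 CPM (SD, n = 14), from 91.9 through a median of 106 to 136 CPM. The cosine was close to flat, at 0.02 ± 0.13 (SE, log2; edgeR adjusted p = 0.994). The highest value was the second CT24 mouse and the lowest the second CT12 mouse. Both CT0 values (92.0 and 98.1) lay below those of CT8 (114 and 115), CT20 (112 and 121) and CT24 (105 and 136). Over the 14 libraries the log2 CPM of *Alb* correlated with that of *Gc* at r = 0.79 and with that of *Afm* at r = 0.68, whereas *Alb* and *Ttr* gave r = -0.08. These are descriptions over libraries that share 1 scaling.

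*Ttr* encodes transthyretin, and its reads came next to those of *Alb* per length of CDS. The values were 2772 and 3507 CPM (CT0), 3274 and 3166 (CT4), 2742 and 2717 (CT8), 1931 and 2347 (CT12), 3631 and 1836 (CT16), 3075 and 2667 (CT20) and 2740 and 2863 (CT24). The CT12 pair was low, and the 2 CT16 mice gave the highest and the lowest value of the series. The cosine had a peak-to-trough difference of 0.42 ± 0.19 (SE, log2) with the peak at CT1.3 ± 1.9 h, and the adjusted edgeR p was 0.324. Without CT16 replicate 1 the edgeR difference was 0.64 with an adjusted p of 0.0162, so a single library decides this call.

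*Rbp4*, the retinol carrier, had 1195 ± 168 CPM (SD, n = 14), from 959 through a median of 1215 to 1443 CPM. The highest mean was at CT20 and the lowest at CT4, whose 2 values (959 and 1119) lay below both of CT20 (1408 and 1252). The peak-to-trough difference was 0.29 ± 0.16 (SE, log2) with the peak at CT18.9 ± 1.9 h and an adjusted edgeR p of 0.425. Its partner in the blood, *Ttr*, gave r = 0.34 with it over 14 libraries, as a description.

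*Ambp* (chr4:63143275-63154172, minus strand, 10 exons) had 1098 ± 120 CPM (SD, n = 14), from 792 through a median of 1117 to 1345 CPM. The lowest value was CT16 replicate 2 and the highest CT12 replicate 1. The peak-to-trough difference was 0.15 ± 0.14 (SE, log2; edgeR adjusted p = 0.824). In absolute size, then, the 24-h component of the 6 genes ran from 0.02 to 0.42 (log2) with SEs of 0.10 to 0.19, against 0.90 and 1.63 for the serpins.

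Scaling by the whole library changed the picture for most of the 8 genes. With the total count as the denominator, the fitted peaks of *Alb*, *Gc*, *Afm*, *Ttr*, *Rbp4* and *Ambp* all lay between CT20.9 and CT23.8, and their peak-to-trough differences were 0.43 to 0.82 (log2). None of the 8 passed the threshold in edgeR under this scaling, beside 8.25% of all transcripts, though 5 of the 8 had an unadjusted edgeR p under 0.05, as did 27.5% of all transcripts. Against TMM, total-count scaling shifted all transcripts of a library together, with a median shift of 0.44 (log2) at CT0 and of -0.30 at CT12. Taking only the *Mup* counts out of the total moved the time-point means by at most 0.07 from TMM. Under that scaling *Serpina6* and *Serpina7* passed, as 10.7% of all transcripts did.

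**Figure D3:**
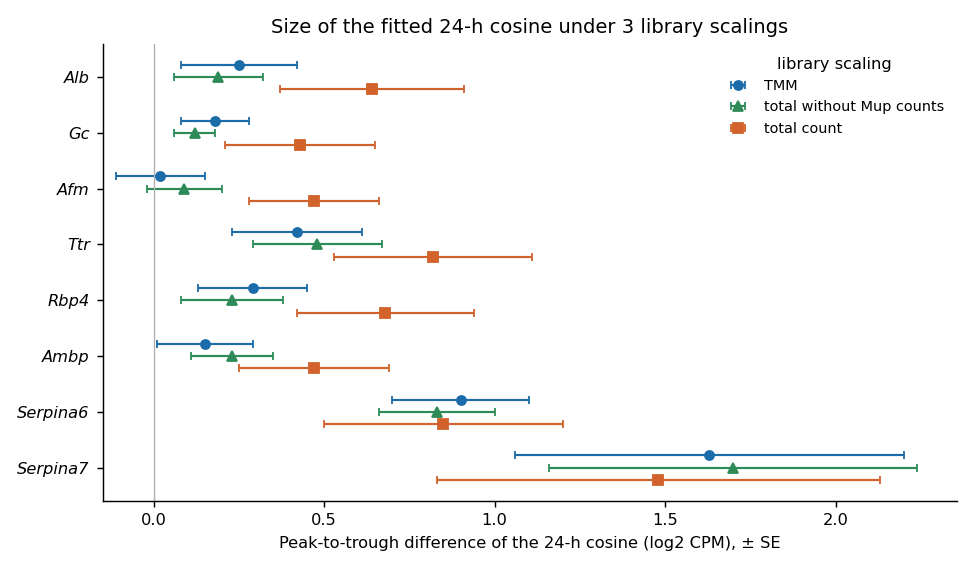
Peak-to-trough difference of the least-squares 24-h cosine on log2 CPM (x axis) for each gene (y axis) under TMM (circles), total count without *Mup* (triangles) and total count (squares). Bars are the SE over 14 libraries. For *Alb* the difference is 0.25 with TMM, 0.19 without *Mup* counts and 0.64 with the total count.

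JTK_CYCLE, the rank test named in the study's methods, was run on total-count CPM and passed 22.2% of all transcripts at a P adjusted over lags under 0.05. Of the 8 genes it called only *Ttr* (P = 0.0297, exact null distribution, peak at CT1.0). On TMM-scaled CPM it passed 17.7% of transcripts and called *Serpina6* (P = 0.00161, exact, CT16.0) and *Serpina7* (P = 0.0196, exact, CT8.0), while *Ttr* gave P = 0.232 (exact). After adjustment over all transcripts with total-count scaling, none of the 8 was called, the lowest value being 0.167 for *Ttr* (exact null distribution). In the 7-group edgeR test, 7.08% of all transcripts passed, and of the 8 genes *Serpina6* did. For CT24 against CT0, edgeR called no transcript (0%), while 873 of 17299 had an unadjusted p under 0.05, none of them among the 9 transcripts here. CT24 minus CT0 ran from -0.16 for *Ttr* to 0.83 for *Serpina7* (log2).

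Together the 9 transcripts took 3.89% ± 1.03 (SD, n = 14) of all counts, from 2.45% to 5.74%. Both *Rbp4* transcripts, which hold nearly the same reads, are in this sum. With 1 transcript for every gene in the files the share was 4.56% ± 1.25, and with CDS reads only it was 4.19% ± 1.10. *Alb* alone took 2.95% ± 0.812, and it made up 77.9% ± 2.35 of the reads of the 8 genes when 1 transcript was counted per gene. Without the *Mup* counts, the share of the 9 was 9.21% ± 0.815 (8.19% to 10.9%). The relative spread was thus much smaller once the *Mup* reads were out. The highest share of all counts was CT16 replicate 1, a library with 42.6% *Mup* reads, and the lowest was CT12 replicate 2, with 70.7%.

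**Figure D4:**
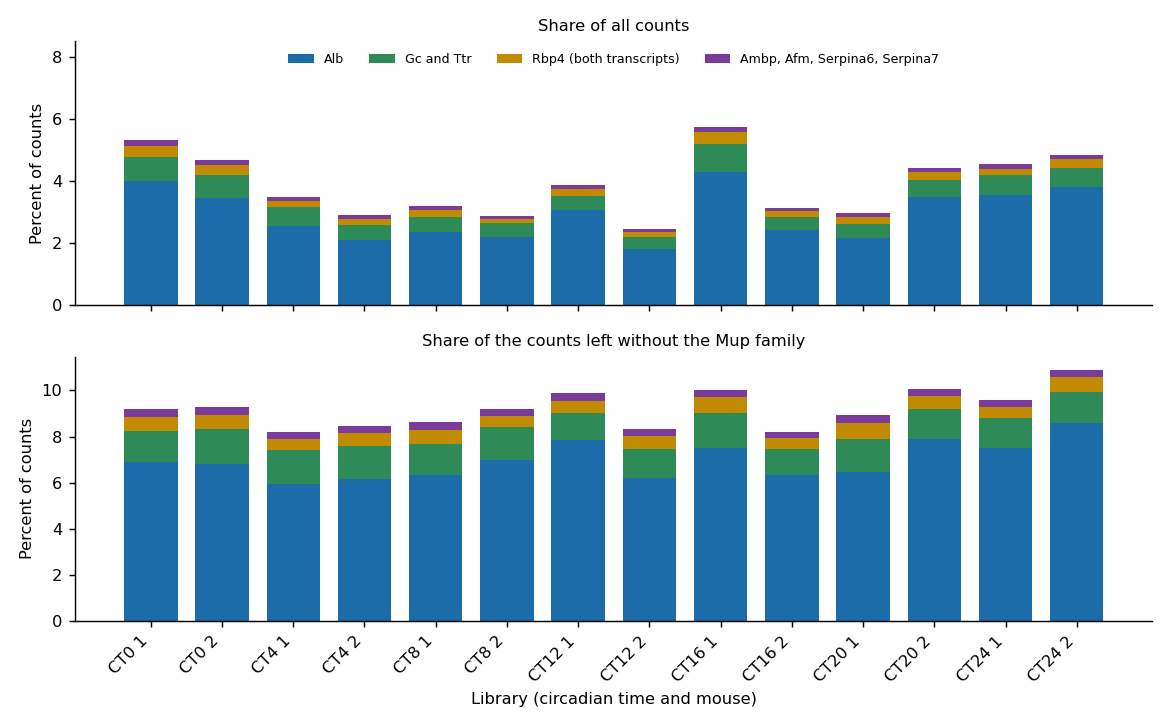
Percent of counts (y axis, from 0) taken by the 8 genes in each of the 14 libraries (x axis), stacked by gene, with both *Rbp4* transcripts counted. The upper panel divides by all counts (2.45% to 5.74%) and the lower panel by the counts left without the *Mup* family (8.19% to 10.9%).

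As RPKM, reads scaled to CDS length and to the TMM-scaled library size, the order of levels was *Alb* (15598 ± 2340), *Ttr* (6244 ± 1165), *Gc* (1873 ± 183), *Rbp4* (1871 ± 246), *Ambp* (962 ± 107), *Serpina6* (74.8 ± 20.4), *Afm* (58.1 ± 6.76) and *Serpina7* (3.78 ± 2.15), with SD over n = 14. *Gc* and *Rbp4* did not differ beyond their spread, and the ranges of *Serpina6* (42.3 to 121) and *Afm* (49.5 to 73.2) overlapped. The other neighbours did not overlap in any library. *Alb* ranked 14 of 20403 genes, and all 13 above it were *Mup* genes, so it had the densest reads outside that family. *Ttr* ranked 19, *Gc* 32, *Rbp4* 33 and *Ambp* 47. *Serpina6* ranked 547, *Afm* 708 and *Serpina7* 4641.

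Nearly all reads of the 8 genes lay in the CDS, from 92.9% for *Ambp* to 100.0% (rounded) for *Alb*. The share in the 5'UTR differed widely, at 6.99% for *Ambp*, 5.71% for *Serpina6*, 4.4% for the shorter *Rbp4* transcript, 1.04% for *Serpina7*, 1.00% for *Gc*, 0.902% for *Afm*, 0.0441% for *Ttr* and 0.0165% for *Alb*. The median share was 3.83% over the 16838 transcripts that averaged 10 or more counts in all and in the CDS, so *Ambp*, *Serpina6* and the shorter *Rbp4* transcript lay above it, and the longer *Rbp4* transcript, which counts nearly the same reads, lay below it with 0.675%. It was 9.56% over the 7640 that also averaged 10 or more in the 5'UTR. Per nucleotide, the 5'UTR of *Serpina6* was read 1.32 times as densely as its CDS and that of *Ambp* 0.916 times, while *Gc* gave 0.0812, *Alb* 0.00661 and *Ttr* 0.00105. Over the same 7640 transcripts the median ratio was 0.637 (quartiles 0.352 and 1.09). *Ttr* had the lowest ratio of these 7640. These ratios use the region lengths in the files, which for *Alb*, *Ambp* and *Serpina6* give shorter 5'UTRs (46, 87 and 55 nt) than the present RefSeq models (65, 117 and 201 nt), and a read at the boundary can fall on either side.

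**Figure D5:**
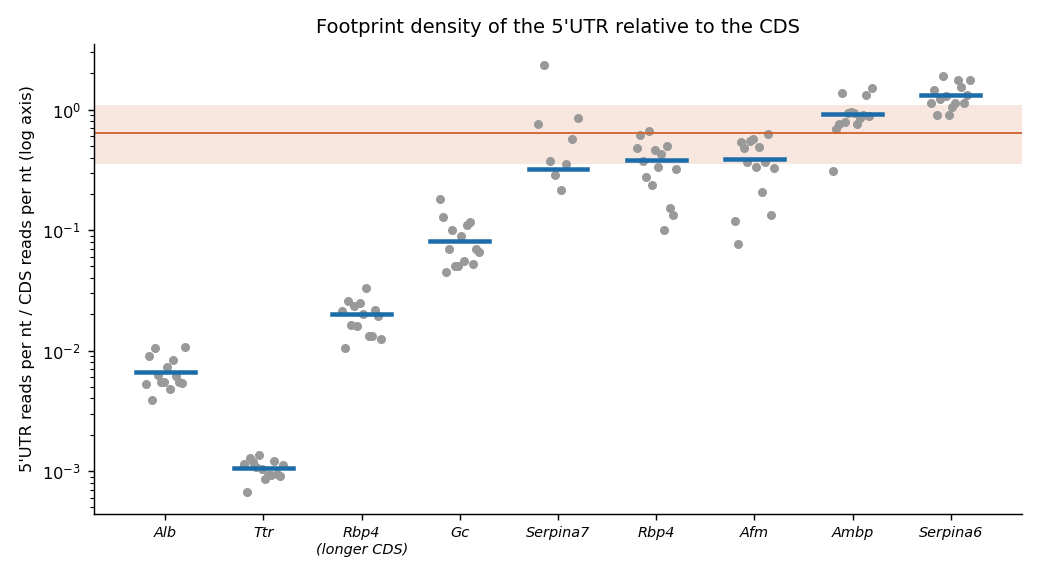
Reads per nt of the 5'UTR divided by reads per nt of the CDS (y axis, log scale) for the 9 transcripts (x axis). Points are libraries, blue bars the 14 libraries pooled, and the orange line and band the median and quartiles of 7640 transcripts. The 6 libraries without a *Serpina7* 5'UTR read are not drawn. The pooled ratios run from 0.00105 for *Ttr* to 1.32 for *Serpina6*.

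The bases around the start codon are shown for 4 transcripts with low and high ratios (0.00661 for *Alb*, 0.916 for *Ambp*, and 0.385 and 0.0200 for the shorter and longer *Rbp4* forms), because the 5'UTR counts end there. Each line gives the last 12 bases of the 5'UTR, the start codon in capitals and the next 3 bases (GRCm38.p6).
Alb: gcctctggcaaaATGaag
Ambp: gaccacagagccATGcag
Rbp4, shorter CDS: ctccggggtgagATGgag
Rbp4, longer CDS: ctcttggccccgATGgat

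The RefSeq 5'UTRs of *Alb*, *Ambp* and the shorter *Rbp4* form hold no upstream ATG. That of the longer *Rbp4* form holds 3 and that of *Gc* 3, all followed by an in-frame stop before the CDS, and those of *Afm* and *Serpina7* hold 2 each.

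The 2 *Rbp4* transcripts (chr19:38116620-38125321, minus strand, 6 exons each) share 5 exons and a coding sequence of 606 bases. The longer one (NM_001159487) encodes 245 residues and starts in an upstream exon of its own. The shorter one (NM_011255) encodes 201 residues, the usual length of the secreted precursor. Their total reads over 14 libraries, 1002633 and 1003719, differ by 1086, and their 3'UTR reads are the same, so most reads were counted for both transcripts. The shorter form had 44166 reads in its 5'UTR of 72 bases in RefSeq, 18 of which are coding in the longer form. The longer form had 6769 in its own 5'UTR of 253 bases, and 36311 more CDS reads than the shorter. The cosine test gave adjusted edgeR p-values of 0.425 and 0.423 for the 2, which are not independent results.

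In limma's test of a 24-h cosine in the ratio of 5'UTR to CDS reads, none of the 7640 transcripts passed (0%), while 377 had an unadjusted p under 0.05, none of them among the 8 transcripts tested here (*Serpina7* had too few 5'UTR reads). The 5'UTR share of *Ambp* ranged from 2.49% at CT0 replicate 1 to 11.1% at CT24 replicate 2, and that of *Rbp4* from 1.18% at CT16 replicate 2 to 7.32% at CT8 replicate 1. That of all transcripts without the *Mup* family ranged from 2.98% to 4.88%. The mice of 1 time point often lay far apart, as at CT8 for *Rbp4* (7.32% and 2.74%).

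The *Serpina7* promoter is shown because this gene had the larger swing of the serpins. Of the 2 RefSeq start sites of the gene, it belongs to that of the counted transcript (chrX:139085237-139085486, minus strand, read 5' to 3' along the gene), with the same motifs in capitals. The gene lies at chrX:139079249-139085236 with 5 exons.
Serpina7: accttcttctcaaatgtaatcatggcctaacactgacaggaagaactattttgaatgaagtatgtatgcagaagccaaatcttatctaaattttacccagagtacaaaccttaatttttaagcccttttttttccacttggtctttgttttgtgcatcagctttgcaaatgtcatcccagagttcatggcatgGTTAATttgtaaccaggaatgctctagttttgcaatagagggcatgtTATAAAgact

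It holds GTTAAT 57 bases and TATAAA 10 bases before the start site. From the other start site, which lies further downstream, they are 74 and 27 bases away. No match of TTNTGTAA, of the CCAAT box or of the E-box CACGTG was found in it. The TATA box letters occur in 12.4% and the E-box letters in 6.02% of all windows. Among the 8 windows of the 6 genes with a listed promoter, none holds CACGTG.

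The genes whose pattern over the 14 libraries was most like that of each gene were found among 8215 others (Pearson r of log2 CPM). *Serpina6* was closest to *Cyp2a5* (r = 0.949), a coumarin hydroxylase of the cytochrome P450 family, to *Bhlhe40* (r = 0.927), a transcriptional repressor of the clock, and to *Gstt2* (r = 0.917), a glutathione transferase. Their fitted peaks lay from CT14.1 to CT15.4, as the choice by likeness to *Serpina6* over the same libraries implies. *Serpina7* was closest to *Fam172a* (r = 0.901), *Arhgap12* (0.873) and *Cbwd1* (0.855). *Alb* was close to *Gpld1* (0.877) and *Aspa* (0.841), and *Gc* to *Scyl2* (0.872), *Hrg* (0.866) and *Prg4* (0.843), where *Hrg* encodes histidine-rich glycoprotein of plasma. *Afm* was closest to *Apob* (0.830), *Rbis* (0.822) and *Uty* (0.791), and *Ttr* to *Serf2* (0.916), *Gm2a* (0.914) and *Creg1* (0.910). *Rbp4* was closest to *Igfbp4* (0.850), *Npc2* (0.843) and *Mpc2* (0.812), and *Ambp* to *Cnpy2* (0.884), *Ifi30* (0.861) and *Cfb* (0.841).

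Among genes that handle the ligands of these carriers, 6 of 9 of corticosteroid handling passed the cosine test, and 4 of 9 with total-count scaling, beside 11.3% and 8.25% of all transcripts. The list includes the clock gene *Per1*, and its median difference was 0.80 on the log2 scale, beside 0.44 for all. The glucocorticoid-induced genes *Fkbp5* (log2 difference 2.97, CT14.9, edgeR adjusted p = 9.60e-06), *Per1* (3.15, CT13.8, 0.000430) and *Tsc22d3* (1.70, CT18.4, 0.00251) peaked in the subjective night. The bile acid and steroid reductase *Akr1d1* (0.80, CT19.5) did so too, whereas the mineralocorticoid receptor *Nr3c2* (1.00, CT10.5) and the hydroxysteroid dehydrogenase *Akr1c6* (0.57, CT8.4) peaked earlier. *Nr3c2* and *Akr1c6* did not pass with total-count scaling. *Hsd11b1*, which regenerates active glucocorticoid and ranks after *Akr1c6* by counts in this list, had 0.25 (edgeR adjusted p = 0.544).

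In thyroid hormone handling 2 of 11 passed (18.2%, beside 11.3% of all transcripts). *Thrsp*, a thyroid hormone-induced gene of fat synthesis, ranged from 17.8 to 410 CPM (log2 difference 3.59, CT17.3, edgeR adjusted p = 1.19e-05). The uptake carrier *Slco1b2* had 0.80 at CT10.6 (edgeR adjusted p = 0.00647, and 0.463 with total-count scaling, where the thyroid hormone receptor *Thra* passed with 0.0237 and the count stayed at 2), and *Slc10a1* had 0.24 (0.393). In retinol handling 3 of 10 passed (30.0%, beside the same 11.3%). These were *Stra6l*, a receptor for *Rbp4* (0.96, CT2.4, edgeR adjusted p = 9.39e-05), the retinoic acid hydroxylase *Cyp26a1* (2.93, CT21.0, 0.0160) and the lipase *Lpl* (1.92, CT4.0, 2.48e-05), while *Rdh7* had 0.19 (0.457).

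In vitamin D and E handling 1 of 8 passed (12.5%, beside the same 11.3%), the fatty acid and vitamin E hydroxylase *Cyp4f14* (0.47, CT22.6, edgeR adjusted p = 0.0375, and 0.0567 with total-count scaling), and *Cyp27a1* had 0.36 (0.126). None of the 5 tested partners of bikunin passed in edgeR, with *Itih4* at 0.44 (adjusted p = 0.132) and *Itih2* at 0.28 (0.372). *Itih1* had 0.128 with TMM and 0.0270 with the total without *Mup* counts (edgeR adjusted p). In albumin processing and recycling 1 of 11 passed (9.09%), the cargo receptor subunit *Mcfd2* (0.64, CT21.9, edgeR adjusted p = 0.00692). *B2m*, a subunit of the receptor that recycles albumin, had 0.11 (0.886) and the disulphide isomerase *P4hb* 0.27 (0.290). Of 11 other plasma carriers 1 passed (9.09%), the siderophore carrier *Lcn2* (1.74, CT10.5, edgeR adjusted p = 0.0494, and 0.171 with total-count scaling), while hemopexin (*Hpx*, 0.46) and haptoglobin (*Hp*, 0.48) had adjusted p-values of 0.209 and 0.126. Transferrin is missing from these 11, because it was listed as *Tf* and the counts name it *Trf*. It ranked 26 by RPKM (2938), above *Hpx* (1818).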

How the data were processed

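The authors deposited, for each of 14 libraries, raw counts of reads per RefSeq transcript, given for the CDS and for either UTR. By the study's methods, reads matching rRNA were discarded, the rest were mapped to mm10 and those with an exact match were kept, which lowers counts over bases that differ from the reference, and the submitters' processing notes name FastQC, Bowtie2 and SAMtools. The methods then used only reads of 26 to 32 nt with a single genomic position, each placed at its A site, for transcript density. Whether the deposited counts used the same filter, and how reads shared by near-identical genes or by several transcripts of a gene were counted, is not given in the sources used here, so the *Mup* share and the split between the *Rbp4* transcripts are uncertain. Transcripts were named through RefSeq and GENCODE tables (27840 and 116, with 211 left unnamed).

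The 3 regions were added. edgeR 4.0.16 (R 4.3.3) fitted a 24-h cosine, and separately 7 groups, to transcripts averaging 10 or more counts, with TMM and Benjamini-Hochberg adjustment. limma 3.58.1 tested log2((5'UTR + 0.5)/(CDS + 0.5)) and DESeq2 1.42.0 served as an alternative. JTK_CYCLE was rewritten in Python 3.11.15. The edgeR cosine and 7-group tests, the limma ratio test and JTK_CYCLE were tried on simulated data in which few transcripts changed. There the edgeR cosine test called 43.0% of transcripts with a log2 difference of 1 and 71.0% of those with 2. The 7-group test called 13.0% and 62.0% of them. Least-squares cosines used log2 CPM with no pseudocount. Likeness used log2 CPM of 1 transcript per gene with a mean of at least 100 counts, and the 3 closest genes were named, except 1 that is not reported here. Listed genes were named if they passed the cosine threshold or were among the 2 with most counts in their list. Gene models, start codons and promoter windows (250 bases) came from RefSeq on GRCm38.p6, and promoter windows were listed for *Alb*, *Gc*, *Afm*, *Ambp*, *Rbp4* and *Serpina7*.

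The members and gene lists were chosen with earlier results of these data known. The 2 mice of a time point were separate animals, and p-values rest on 14 mice. Replicate numbers were tested for pairing: deviations of same-numbered libraries correlated at -0.06 to 0.16 over 21 pairs of time points, so they were not used as pairs. Alternatives were other scalings and count minimums, counts of the CDS alone, a single transcript for each gene, leaving out each library, the replicate block, halved counts of CT16 replicate 2, other tools, pseudocounts and denominators. Summed counts were 40593197 to 90458783 per library, and *Serpina7* had the fewest reads of the 8 genes. What limits its call was not tested.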

Additional observations from a re-analysis of the deposited data

How the results depend on the processing

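The number of the 8 genes called by the edgeR cosine was 2 and stayed 2 with DESeq2 size factors, upper-quartile scaling, the total without *Mup*, CDS reads only, a minimum of 1 or 100 counts, halved counts of CT16 replicate 2 and without both CT24 libraries. A permutation test of the fit, whose p-values are not adjusted, also passed 2 (p = 0.00191 and 0.0457). It was 0 with total-count scaling, 1 with 1 transcript per gene, where *Serpina7* had an adjusted p of 0.0553, and 1 in DESeq2's likelihood ratio test, which called 2539 transcripts in all. Leaving out 1 library gave 1 to 2, with 1499 to 2062 transcripts in all. With the replicate block, which the labels' numbers allow but which pairs no mice by the check above, 1916 transcripts and the same number of the 8 genes (2) were called, with *Serpina6* at 0.00802 and *Serpina7* at 0.0495 (edgeR adjusted p). The 7-group count of the 8 genes was 1, was 0 with total-count scaling and 2 with a minimum of 1 count, and ran from 0 to 2 with a library left out. All transcripts called by the cosine fell from 1947 to 1250 with 1 transcript per gene, a setting in which fewer transcripts are tested. In the 7-group fit 1225 became 746 with 1 transcript per gene and 2197 with total-count scaling, where the cause was not tested. JTK_CYCLE called 1 of the 8 genes, and 2 with TMM, 2 without *Mup* counts (3022 transcripts in all), 2 with CDS reads only (3911 in all, *Rbp4* with P = 0.0439, exact null distribution) and 0 after Benjamini-Hochberg adjustment, which cut all transcripts called from 3840 to 384. The ratio test called none of the genes under any alternative run. The share of counts was 3.89% and 9.21% without *Mup* counts, by construction of the denominator, and 3.75% to 4.01% with a library left out. With 2 mice per time, changes of the size fitted for the 6 uncalled genes are near the spread between mice, and a p above the threshold does not show a flat profile.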

Other observations

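Of 20 genes for factors known to act on the albumin promoter, a list chosen with earlier results known, 6 passed the cosine test in edgeR at an adjusted p under 0.05, beside 11.3% of all transcripts, and all of the 6 but *Dbp* peaked between CT12 and CT24. The D-box activators *Dbp* (log2 difference 6.63, CT11.2) and *Tef* (2.56, CT12.9, edgeR adjusted p = 2.54e-06) peaked near CT12, and *Hlf*, the other D-box activator, had 0.74 (0.0614). The D-box repressor *Nfil3* peaked at CT22.6 (2.1, edgeR adjusted p = 0.00238). *Cebpb* (1.02, CT13.2, 0.0143), *Foxa3* (1.05, CT13.9, 0.00353) and *Nfic* (0.86, CT19.7, 0.00310) also passed. *Cebpa* (0.18, 0.826) and *Hnf4a* (0.36, 0.349) have the most counts of the list and did not. With total-count scaling *Cebpb* and *Foxa3* no longer passed (edgeR adjusted p = 0.142 and 0.0726), while *Nfya* and *Nfyb* did (0.0408 and 0.0176), so the list count was 6 under both scalings with different genes in it.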
